A study of Mus musculus with 12 samples.

Results

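Kidney libraries of this series fell into a class with a low and a class with a high share of mitochondrial transcripts, and the nuclear genes of both classes were compared. For each library the counts on mitochondrially encoded genes were divided by all counts on genes. Libraries were chosen by this measured share: the 4 of 12 with less than 10% formed the low class, and the other 8 formed the high class. The samples were kidneys of male C57BL/6J mice that received a daily intraperitoneal injection for 28 days, with 1 poly(A) RNA library per mouse. Control mice received saline with Tween 80, and 2 further groups received the same vehicle with 10 or 20 mg CBD (cannabidiol) per kg body weight, 4 mice each. RNA was isolated from a small scrape of kidney tissue that had been kept in a stabilizing solution and frozen. Counts on genes ranged from 15417867 to 23532088 per library, and no pair of libraries held identical counts.

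The classes come from the libraries' own counts. They are no treatment and no group of the study, and each treatment group held libraries of both classes. The mitochondrial share was 3.53% in 10 mg replicate 1, 4.55% in 10 mg replicate 3, 5.54% in 20 mg replicate 3 and 5.77% in control replicate 2. In the high class it was 12.8%, 13.5% and 17.5% in control replicates 1, 4 and 3, 15.3% in both 10 mg replicates 2 and 4, and 14.0%, 20.6% and 23.4% in 20 mg replicates 4, 1 and 2. The libraries nearest to the limit of 10% therefore had 5.77% and 12.8%, and no library lay between them. These shares chose the classes and were not tested.

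Mitochondria carry a small circular genome that encodes a few core subunits of the respiratory chain together with the ribosomal and transfer RNAs needed to translate them. All other mitochondrial proteins are encoded in the nucleus, translated on cytosolic ribosomes and imported. In the kidney, the proximal tubule, the thick ascending limb and the distal convoluted tubule are rich in mitochondria, because they power the reabsorption of salt and solutes, whereas the thin limbs and the inner medulla rely more on glycolysis. Mitochondrial messenger RNAs carry poly(A) tails and are therefore captured with nuclear ones in a poly(A) library.

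**Figure D1:**
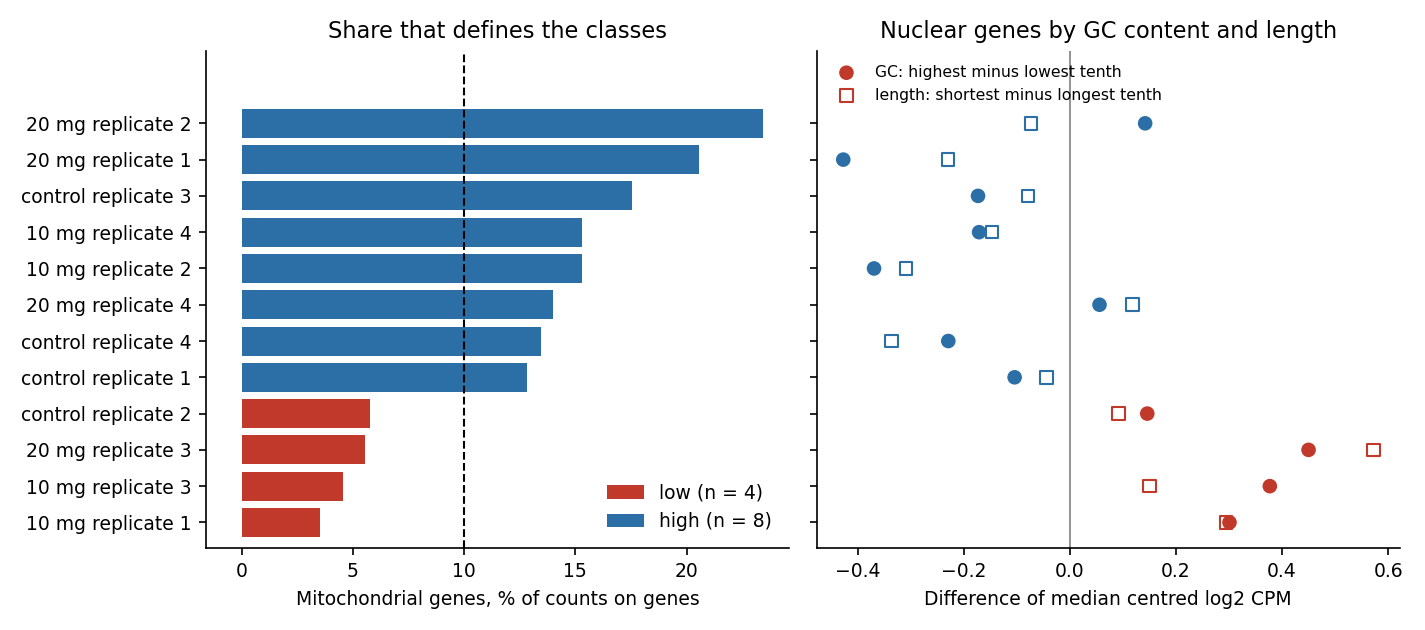
Left, mitochondrial genes as a percentage of counts on genes in each of the 12 libraries, with the limit of 10% as a dashed line. Right, for nuclear protein-coding genes of the same libraries, the median centred log2 CPM of the decile with the highest GC content minus that with the lowest (filled circles) and of the shortest decile minus the longest (open squares); the 4 low libraries (red) had positive values in both, and so did the high library 20 mg replicate 4 (0.056 and 0.118). 20 mg replicate 2, with the largest mitochondrial share, had a GC value of 0.142 and a length value of -0.073.

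Large parts of the nuclear transcriptome differed between the classes. Of 17026 nuclear genes tested with treatment group in the model, 6309 were called at an adjusted p-value under 0.1 (edgeR's quasi-likelihood test, Benjamini-Hochberg), which is 37.1% of all tested. Of these, 3348 genes (19.7% of all tested) were higher and 2961 (17.4%) were lower in the low libraries. These numbers lean on 20 mg replicate 3: without this library 4030 of 17398 genes were called, 2051 higher and 1979 lower, and 28 of the 130 named genes called between the classes lost their call. Most differences were small. The median absolute log2 difference of the called genes was 0.48, where 1 is a doubling, and 500 called genes reached 1. All 4 low libraries lay above all 8 high libraries for 1150 genes (6.75% of those tested) and below them for 1053 (6.18%). For 5893 of the called genes, the low libraries differed from the high ones in the same direction inside each of the 3 treatment groups. The calls came from these same libraries, so this count is a description and no replication. Mitochondrial genes were left out before scaling, and the median log2 difference over all genes tested was -0.0026.

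The gene with the smallest p-value among those higher in the low libraries was Atp5f1e, which encodes the epsilon subunit of the mitochondrial ATP synthase. It had 374, 413, 454 and 582 CPM (scaled for how many nuclear counts a library had) in control replicate 2, 10 mg replicates 1 and 3 and 20 mg replicate 3, the order in which the low libraries are given from here on. In the 8 high libraries it ranged from 120 to 219 CPM with a median of 151. The classes did not overlap, and the log2 difference was 1.57 ± 0.16 (SE, adjusted p = 4.955e-05, edgeR). Mcrip1, a short gene encoding a small regulator of transcriptional repression, had 44.4, 75.7, 57.6 and 88.5 CPM in the low libraries against 20.5 to 40.4 CPM (median 24.6) in the high ones, and its log2 difference was 1.34 ± 0.15. Tbc1d17, which encodes a GTPase-activating protein for Rab GTPases, was almost level within the low class, with 87.6, 92.6, 84.2 and 90.7 CPM. Its high libraries had 44.2 to 57.7 CPM (median 52.1), a log2 difference of 0.80 ± 0.09. The tyrosine phosphatase gene Ptpn7 had a log2 difference of 1.76, Heatr3, which is needed for the import of a ribosomal protein into the nucleus, 1.04, and Tsn, which encodes the RNA-binding protein translin, 0.85. Both 7SL RNA genes of the list, Rn7s1 and Rn7s2, were also higher, by 1.65 and 1.47, and as near-identical copies they may share reads. Also higher were the gene models Gm48771, Gm38197, Gm15445, Gm47445 and Gm43185, with log2 differences from 1.52 to 2.09.

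Among the genes lower in the low libraries, Aadat, the kynurenine aminotransferase of tryptophan breakdown, was separated without overlap. It had 145, 140, 165 and 147 CPM in the low libraries, whereas the high libraries ranged from 248 to 301 CPM with a median of 257. The log2 difference was -0.84 ± 0.09 (adjusted p = 4.955e-05, edgeR), and it was -0.86, -0.88 and -0.78 within the control group, the 10 mg group and the 20 mg group. Cideb, a lipid droplet protein, had 2.81, 2.45, 2.51 and 1.93 CPM against 6.21 to 12.6 CPM (median 7.37), a log2 difference of -1.76 ± 0.23. The calpain family member Capn6 (-2.03), the endosomal RNA sensor Tlr7 (-1.88) and the zinc finger genes Zfp51 (-1.62) and Zfp97 (-1.60) were lower as well, at a few CPM or less. Also lower were Gm13841, Gm45792, Apoo-ps and Rpl10-ps6, pseudogenes or gene models with log2 differences from -2.17 to -0.92, whose reads may be shared with related genes.

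**Figure D2:**
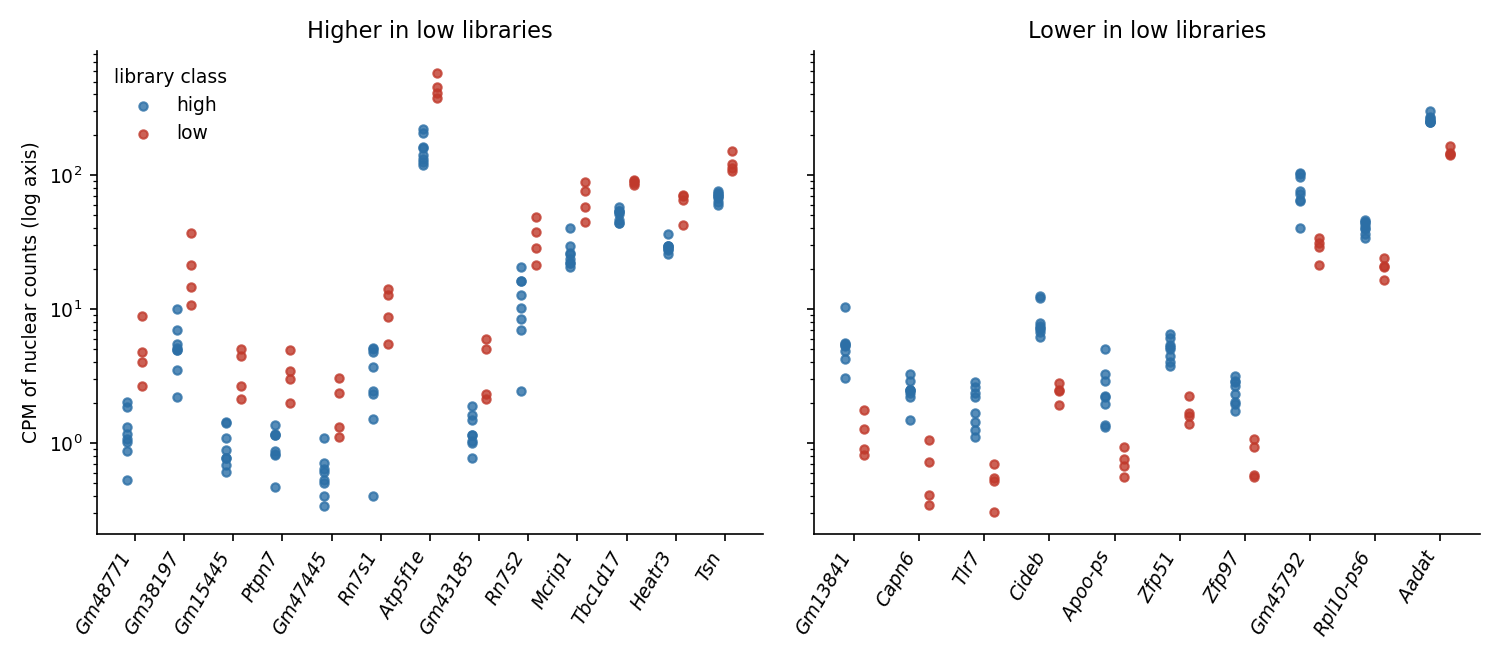
CPM of nuclear counts on a log axis for named nuclear genes, with 1 point per library, the 8 high libraries in blue and the 4 low libraries in red. Left, genes higher in the low libraries; right, genes lower in them; for each gene shown the classes do not overlap, which the rule for naming required, and copies of mitochondrial DNA are left out.

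Among called genes with a mean of at least 1 CPM whose classes did not overlap, 3 of the 10 with the largest decrease were copies of mitochondrial DNA that lie in the nuclear genome. Atp6-ps, Gm10222 and Gm28439 are neighbours on chromosome 1 (GRCm39) and match the mitochondrial chromosome at 100% identity over 678, 294 and 876 bases. Atp6-ps had 163, 102, 174 and 142 CPM in the low libraries against 377 to 992 CPM (median 624) in the high ones, a log2 difference of -2.12. A read from such a copy cannot be told from a mitochondrial read, so these values may be close to the measure that defined the classes. They are given only as a description. Other copies on chromosome 1 with 100% identity differed less. Gm28661 (681 bases) had a log2 difference of -0.84 with overlapping classes, and Gm28437 (783 bases) one of -0.20 that did not pass. Of 20 nuclear genes with such a match over at least 100 bases and at least 90% identity, 16 were tested, of which 12 were lower and 1, Gm13341 (0.79), was higher in the low libraries. Over all genes tested, 17.4% were lower and 19.7% higher. The calls of these copies are counted among the 6309, and with the copies removed 6302 of 17010 genes were called. Copies whose classes overlapped reached similar decreases, among them Gm4076 (-1.81), Gm13339 (-1.78), Gm50174 (-1.77) and Gm11512 (-1.68).

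Base composition and length differed between the genes of the 2 directions. Among 13707 protein-coding genes with annotation, those higher in the low libraries had a median transcript GC content of 54.3% and a median transcript length of 2523 bases. Genes lower in the low libraries had 46.4% and 4626.5 bases, and genes not called 50.3% and 3488 bases. In the decile of genes with the lowest GC content, 5.11% were higher and 38.5% lower in the low libraries, and in the decile with the highest, 40.7% were higher and 3.36% lower. Across these genes, Spearman's rho of the log2 difference was 0.427 with GC content, -0.313 with transcript length, -0.333 with the span of the gene and 0.086 with mean CPM, as a description, since genes share the same 12 libraries and are not replicates.

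Stretches of coding sequence show the ends of this range in composition and not typical genes of either direction. The central 150 coding bases of the canonical GENCODE transcripts are given for 2 named genes of each direction, 5′ to 3′ on the coding strand with G and C in capitals. Tbc1d17 (GRCm39 chr7:44484047-44498507, minus strand) and Mcrip1 (chr11:120433708-120440563, minus strand) were higher in the low libraries, and G or C made up 55.3% and 56.7% of the bases shown. Zfp97 (chr17:17341677-17367093, plus strand) and Zfp51 (chr17:21670587-21686333, plus strand) were lower, with 34.7% and 35.3%. These genes were picked after their values were seen, and by their GC content. Among protein-coding genes named by largest difference or smallest p-value, they had the highest GC content of those higher and the lowest of those lower. The gap between them was therefore fixed by the choice, and both low-GC genes are zinc finger genes. Other named genes lay against the trend, such as Tsn (higher, 45.4% GC in the transcript) and Cideb (lower, 52.0%).
Tbc1d17: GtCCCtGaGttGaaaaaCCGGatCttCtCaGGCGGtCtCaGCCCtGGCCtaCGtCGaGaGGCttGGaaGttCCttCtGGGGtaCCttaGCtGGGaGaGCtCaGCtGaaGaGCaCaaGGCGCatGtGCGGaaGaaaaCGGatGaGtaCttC
Mcrip1: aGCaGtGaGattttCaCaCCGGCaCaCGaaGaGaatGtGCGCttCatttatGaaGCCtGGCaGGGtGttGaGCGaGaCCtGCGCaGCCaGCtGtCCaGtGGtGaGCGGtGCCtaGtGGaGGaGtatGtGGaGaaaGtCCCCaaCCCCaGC
Zfp97: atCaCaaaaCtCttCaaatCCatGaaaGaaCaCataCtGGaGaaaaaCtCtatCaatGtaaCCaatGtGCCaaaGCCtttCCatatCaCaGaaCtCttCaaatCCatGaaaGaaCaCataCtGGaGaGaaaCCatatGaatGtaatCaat
Zfp51: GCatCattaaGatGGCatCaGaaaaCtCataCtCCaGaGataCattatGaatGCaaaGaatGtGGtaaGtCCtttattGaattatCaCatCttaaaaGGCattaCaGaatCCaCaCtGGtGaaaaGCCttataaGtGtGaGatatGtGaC

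The same contrast was taken inside each library, as the median centred log2 CPM of the decile with the highest GC content minus that of the lowest. It was 0.146 in control replicate 2, 0.301 and 0.377 in 10 mg replicates 1 and 3 and 0.450 in 20 mg replicate 3. In 6 of the 8 high libraries it was negative, from -0.427 in 20 mg replicate 1 to -0.104 in control replicate 1. It was 0.056 in 20 mg replicate 4 and 0.142 in 20 mg replicate 2, the library with the largest mitochondrial share, which lay next to the lowest of the low libraries. The contrast of the shortest with the longest decile was 0.092 to 0.572 in the low libraries, 0.118 in 20 mg replicate 4 and -0.336 to -0.044 in the other 7 high libraries. The classes thus overlapped in the length contrast. In the GC contrast they did not, but by a narrow margin (0.146 against 0.142). With GC content and length of each gene taken into account for every library (GC and length offsets), 5313 of 16967 genes were called and 4258 of the original calls (67.5%) remained, 1 gene with the opposite sign. What part GC content and length had in the difference between the classes was not tested beyond this.

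**Figure D3:**
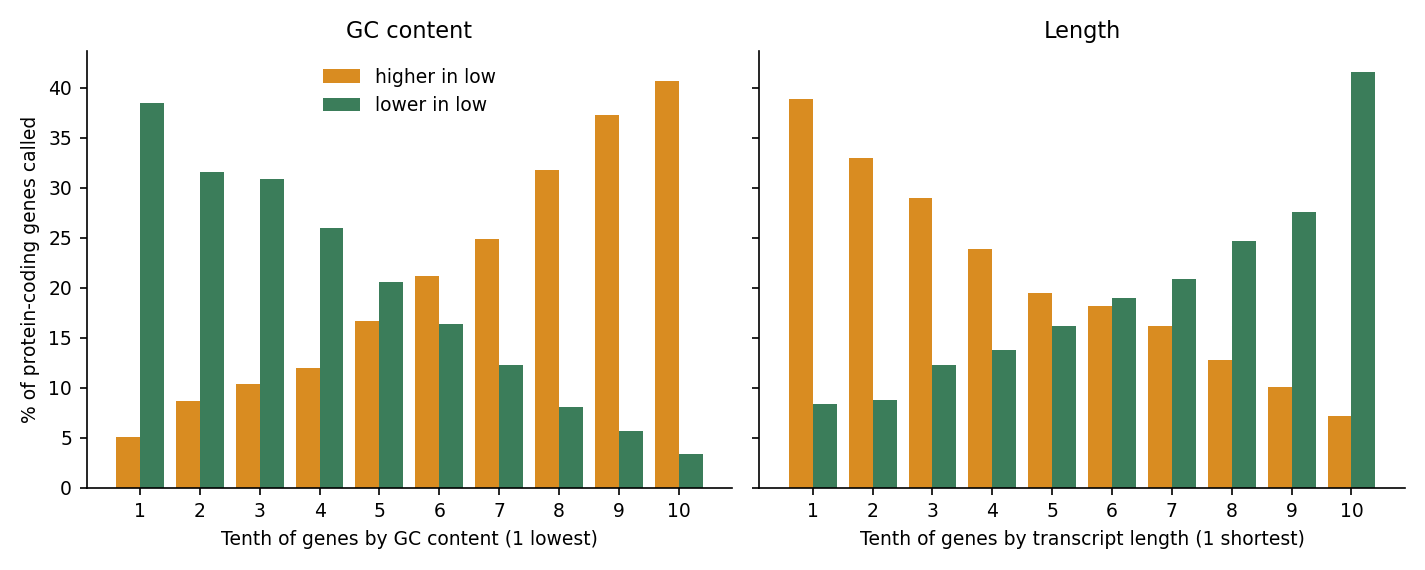
Percentage of protein-coding genes called higher (orange) or lower (green) in the low libraries, for deciles of genes by transcript GC content (left) and transcript length (right). The share higher rose from 5.11% to 40.7% with GC content and fell from 38.9% to 7.22% with length, and the share lower moved the other way.

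Markers of nephron segments differed gene by gene and in most lists in both directions or in a minority of genes. Of 141 tested marker genes in 18 lists, 21 were higher and 28 lower, that is 34.8% called beside 37.1% of all genes. Calls went both ways in 8 lists, 1 way in 6 lists, and 4 lists had no call. The share called was 50% for the S1/S2 proximal tubule, 40% for S3 and 0% for the thin limbs. It was 33.3% for the thick ascending limb and for the distal convoluted tubule, and 28.6% for the connecting tubule. Principal cells had 71.4%, intercalated cells 30% and the inner medullary list 42.9%. In tissue RNA, fewer cells of a type and less RNA per cell cannot be told apart. All 12 libraries held markers of every segment, from 7833 to 12740 summed CPM for the S1/S2 proximal tubule to 67.9 to 230 for the thin limbs.

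Markers of the early proximal tubule (S1 and S2), which reclaims most of the filtered solutes, went down where they were called. Of 12 genes, 0 were higher and 6 lower, with a median log2 difference of -0.23. With the GC and length offsets, 0 were higher and 7 lower, and the median was -0.32. Slc5a12, a sodium-coupled lactate transporter, had 128, 119, 151 and 75.4 CPM in the low libraries and 176 to 246 CPM (median 208) in the high ones, without overlap (-0.92 ± 0.13, adjusted p = 0.000189, edgeR). Cubn, which encodes the protein uptake receptor cubilin, had 298, 164, 257 and 157 CPM against 281 to 603 CPM (median 360), and here control replicate 2 reached into the high range (-0.90 ± 0.15). The basolateral bicarbonate transporter Slc4a4 (-0.52) and the organic anion transporter Slc22a8 (-0.48) were also lower, Slc4a4 not without 20 mg replicate 3. Other markers of the same cells were near 0: the phosphate transporter Slc34a1 had a log2 difference of 0.08 (adjusted p = 0.653), the neutral amino acid transporter Slc6a19 of 0.04 and the glucose transporter Slc5a2 of 0.14.

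The straight S3 segment in the outer stripe moved both ways. Slc22a7, an organic anion transporter, had 252, 383, 280 and 373 CPM in the low libraries against 87.1 to 217 CPM (median 146), without overlap and with a log2 difference of 1.12 ± 0.18 (adjusted p = 0.000316, edgeR). Slc7a13, the apical aspartate, glutamate and cystine transporter of S3, had 1157, 2657, 2343 and 2134 CPM against 775 to 1324 CPM (median 979). Control replicate 2 lay inside the high range and the other 3 low libraries far above it (0.94 ± 0.16). The amino acid transporter subunit Slc3a1, partner of transporters in both S1/S2 and S3, was lower by -0.66, and the lactate and monocarboxylate transporter Slc5a8 by -0.47, a call that the GC and length offsets ended. The remaining 6 of 10 markers did not pass, among them Slc5a1 (0.03) and Cyp7b1 (-0.03).

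In the loop of Henle, none of 8 tested thin limb markers passed the test. The median centred log2 CPM of the thin limb list was 0.49 in control replicate 2, 0.12, -0.28 and -0.08 in the other low libraries, and from -0.69 to 0.86 in the high ones, so the low libraries lay inside the range of the high ones. Of 12 markers of the thick ascending limb, which dilutes the urine, 1 was higher and 3 lower. Cldn10, a paracellular sodium channel protein, had 113, 113, 115 and 116 CPM against 123 to 165 CPM (median 143), a small difference without overlap (-0.36 ± 0.09). The potassium channel Kcnj1 (-0.38) and Nos1 (-1.04), the neuronal nitric oxide synthase of the macula densa, were lower, Nos1 not without 20 mg replicate 3. The offsets left 0 markers of this limb higher and 3 lower. The defining transporter Slc12a1 (-0.04) and uromodulin, Umod (-0.21), did not pass.

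Along the distal nephron, the distal convoluted tubule had 2 of 6 markers higher and 0 lower, namely the calcium-binding parvalbumin Pvalb (0.88 ± 0.19) and the kinase Wnk4 (0.36), which regulates sodium chloride transport. The transporter Slc12a3 itself had a log2 difference of -0.12 that did not pass. In the connecting tubule, 2 of 7 markers were lower, the FGF23 co-receptor Kl (-0.30) and the sodium-calcium exchanger Slc8a1 (-0.25). Neither call held with the offsets (adjusted p = 0.151 and 0.161, edgeR), which left 1 marker of this segment higher and 0 lower. Collecting duct principal cells, which carry out regulated water and sodium uptake, had 3 of 7 markers higher and 2 lower. Aqp3, a basolateral water channel, had 177, 160, 169 and 225 CPM against 99.1 to 143 CPM (median 113) without overlap, a log2 difference of 0.63 ± 0.11. The apical water channel Aqp2 (0.64) and the sodium channel subunit Scnn1b (0.48) were higher too. The other basolateral water channel, Aqp4, with 21.3, 7.81, 13.3 and 8.29 CPM against 17.1 to 28.6 CPM (median 21.9), and the steroid enzyme Hsd11b2 were lower (-0.89 and -0.28), so markers of the same cell differed in opposite directions. Of 10 intercalated cell markers, the chloride exchanger pendrin, Slc26a4 (0.42), was higher and the transcription factor Foxi1 (-0.38) and the proton pump subunit Atp6v0d2 (-0.25) were lower. The offsets also ended the calls of Wnk4 and Atp6v0d2, and leaving out 20 mg replicate 3 those of Kl, Slc8a1, Aqp2, Scnn1b, Foxi1 and Atp6v0d2. Aqp2, Foxi1 and Atp6v0d2 were not called without control replicate 2 either.

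Of 7 genes of inner medullary osmolyte handling and tonicity, 0 were higher and 3 lower. Nfat5, the transcription factor of the response to hypertonicity, had 108, 66.1, 78.3 and 78.0 CPM against 109 to 165 CPM (median 153), a log2 difference of -0.79 ± 0.14 with control replicate 2 just under the high range. The taurine transporter Slc6a6 (-0.34) and the heat shock family gene Hspa4l (-0.42, not called with the offsets or without 20 mg replicate 3) were also lower, whereas the inositol transporter Slc5a3 (-0.11) and the aldose reductase gene Akr1b1 (0.20) did not pass.

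**Figure D4:**
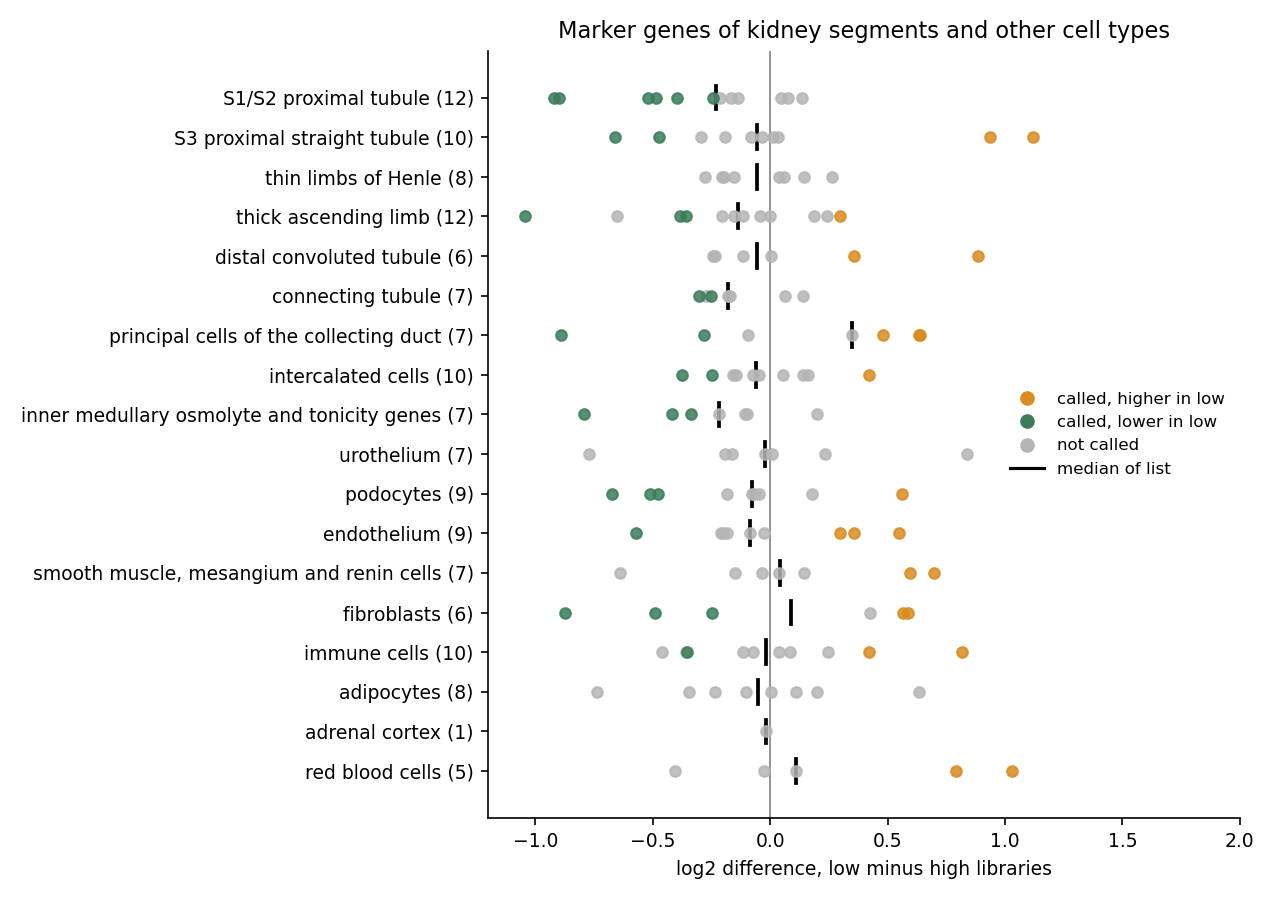
Log2 difference, low minus high libraries, for each tested marker gene (points, number per list in brackets), with the median of each list as a black bar. Orange and green points were called higher or lower at an adjusted p-value under 0.1 and grey points were not; principal cells span -0.89 to 0.64, and the thin limbs, urothelium and adipocytes have no called gene.

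Markers of other cells of the kidney were called in both directions, and many of these calls were lost with the GC and length offsets. The share called was 44.4% for podocytes, 44.4% for endothelium and 83.3% for fibroblasts, beside 37.1% of all genes. It was 28.6% for smooth muscle, mesangium and renin cells and 30% for immune cells. Of 9 podocyte genes, 1 was higher and 3 lower. The cell cycle inhibitor Cdkn1c was higher (0.56) and the scaffold gene Magi2 (-0.67) and the phosphatase Ptpro (-0.51) were lower, while nephrin, Nphs1 (-0.05), did not pass. With the offsets, 0 podocyte genes were higher and 4 lower, and the median was -0.17. In endothelium, Egfl7 (0.55), the VEGF receptor Flt1 (0.36) and Plvap (0.30) were higher and the adhesion gene Cdh5 (-0.57) was lower. Among fibroblast markers, the collagen genes Col1a2 (0.59) and Col1a1 (0.56) were higher, and the proteoglycan genes Lum (-0.87) and Dcn (-0.49) and the receptor gene Pdgfra (-0.25) were lower. With the offsets the fibroblast list had 2 genes higher and 0 lower, so the calls of Lum, Dcn and Pdgfra were lost. Desmin, Des (0.70), and Tagln (0.60) were higher among markers of smooth muscle, mesangium and renin cells, and the renin gene Ren1 (-0.15) did not pass. Of 10 immune markers, the complement gene C1qa (0.82) and the antigen presentation gene Cd74 (0.42) were higher and the lysozyme gene Lyz2 (-0.36) was lower, while C1qb (0.09) and the pan-leukocyte marker Ptprc (-0.07) did not pass. The offsets also ended the calls of Cdkn1c, Egfl7, Plvap, Tagln, Cd74 and Lyz2. Without 20 mg replicate 3, Plvap, Tagln, Lum and Cd74 were not called.

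Tissue next to the kidney and blood were checked in the same way. Adipocyte markers varied widely in both classes, from 82.9 to 335 summed CPM in the low and from 81.7 to 305 in the high libraries, and 0 of 8 were called; the most abundant, Fabp4, had a log2 difference of 0.11. Urothelium markers summed to 0.992 to 23.2 CPM in the low and 2.65 to 29.8 CPM in the high libraries, with 0 of 7 called, and their most abundant member Psca had 9.19, 1.33, 0.104 and 1.45 CPM in the low libraries. Of 6 adrenal cortex genes, Star passed the filter on low counts, with a log2 difference of -0.02. Red blood cell markers ranged from 744 to 1949 summed CPM in the low and from 717 to 1683 in the high libraries. The alpha globin genes Hba-a1 (0.79) and Hba-a2 (1.03), near-identical copies, were higher in the low libraries, while the beta globin gene Hbb-bs (-0.40) did not pass.

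Nuclear genes for the respiratory chain and for the mitochondrial ribosome, where called, were more often higher than lower in the low libraries, whereas other lists of mitochondrial genes had about as many calls in each direction. Of 85 nuclear-encoded genes of oxidative phosphorylation, 42 were higher and 7 lower. This is 57.6% called, beside 37.1% of all genes (19.7% higher and 17.4% lower). The median log2 difference of the 85 genes was 0.30 beside -0.0026 over all genes. Their summed CPM was 28290, 30150, 26910 and 32310 in the low libraries and 22530 to 27050 (median 23710) in the high ones, so 10 mg replicate 3 overlapped with the highest high library, 20 mg replicate 4. The transcripts of this list were short, with a median length of 1014 bases beside 3488 for protein-coding genes not called, and their median GC content was 51.8%. With GC content and length taken into account, 35 were higher and 11 lower and the median was 0.14.

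Subunits of each respiratory complex were counted separately, sorted by gene name alone, so single genes may belong elsewhere. Over all genes tested, 19.7% were higher and 17.4% lower. Complex I, which takes electrons from NADH, had 22 of 38 genes higher and 3 lower. Ndufa2, one of its accessory subunits, had 253, 403, 319 and 487 CPM against 141 to 236 CPM (median 160), a log2 difference of 1.13 ± 0.15 without overlap, and Ndufb7 one of 1.07 ± 0.14. Complex II had 2 of 4 genes higher, complex III 4 of 9 higher and 1 lower, and complex IV 5 of 16 higher and 1 lower with a median of 0.04, close to that of all genes. ATP synthase had 9 of 18 genes higher and 2 lower, and it held the most distant pair. Beside Atp5f1e (1.57), the gene for its coupling factor, Atp5pf, had 189, 234, 193 and 224 CPM in the low and 329 to 446 CPM (median 379) in the high libraries, a log2 difference of -0.86 ± 0.11 (adjusted p = 9.29e-05, edgeR). Parts of the same enzyme were thus separated without overlap in opposite directions.

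**Figure D5:**
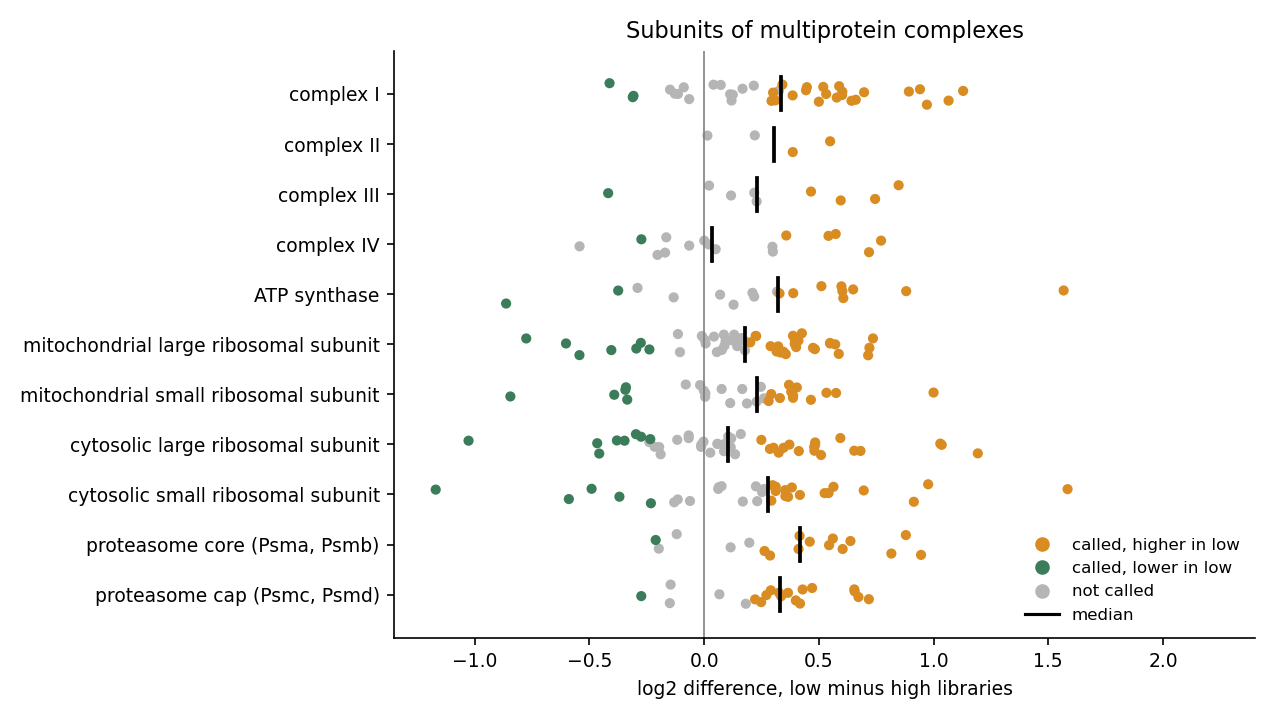
Log2 difference, low minus high libraries, for each gene of the respiratory complexes, ribosomal subunits and proteasome, with the median of each as a black bar and colours as for the marker genes. Medians lie between 0.04 for complex IV and 0.42 for the proteasome core, and each complex except complex II has at least 1 gene called lower.

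Of 78 genes assigned to the mitochondrial ribosome by name alone, 36 were higher and 12 lower (61.5% called beside 37.1% of all genes, median 0.19). Mrpl28, of its large subunit, had 103, 127, 121 and 123 CPM against 62.7 to 90.1 CPM (median 69.1), and its log2 difference was 0.74 ± 0.11. Mrps36 had 25.5, 20.1, 20.1 and 19.1 CPM against 32.0 to 42.0 CPM (median 38.9), a log2 difference of -0.84 ± 0.10 (adjusted p = 7e-05, edgeR). Mrpl42 (-0.78) and Mrpl30 (-0.60) were lower and Mrps26 (1.00) was higher. Of 79 genes of the cytosolic ribosome, 34 were higher and 13 lower (59.5% called beside 37.1% of all genes, median 0.16). Rplp2, a stalk protein, had 415, 881, 538 and 720 CPM against 217 to 429 CPM (median 245) and a log2 difference of 1.19 ± 0.18, and Rps10 one of 1.58 at low counts. Rpl31, of the large subunit, had 71.4, 78.0, 91.7 and 68.7 CPM against 135 to 192 CPM (median 153) and a log2 difference of -1.03 ± 0.12. Ribosomal protein genes have many processed copies in the genome, and how the counting divided reads among them is uncertain. With the offsets, 23 genes of the cytosolic ribosome were higher and 15 lower, and the median was 0.08.

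The genes that copy, transcribe and process mitochondrial DNA went both ways, with 5 of 17 higher and 3 lower (47.1% called beside 37.1% of all genes) and a median of 0.04. The mitochondrial topoisomerase Top1mt (0.47) was higher. So were the helicase Twnk (0.34) and the RNA polymerase Polrmt (0.29), as well as the RNA-binding protein Lrpprc (0.25) and the packaging factor Tfam (0.22). The RNA-degrading enzyme Pnpt1 (-0.90), the transcription factor Tfb2m (-0.60) and the poly(A) polymerase Mtpap (-0.38) were lower. Tfb2m had 23.7, 22.8, 21.9 and 18.5 CPM against 28.2 to 38.8 CPM (median 31.6), without overlap. Of 9 regulators of mitochondrial biogenesis, the coactivator Ppargc1a was lower without overlap, with 71.0, 64.3, 65.8 and 59.4 CPM against 77.7 to 104 CPM (median 91.8) and a log2 difference of -0.51 ± 0.10. Gabpa (-0.57) was lower and the nuclear receptor Esrra (0.34) higher, so 33.3% of these regulators were called beside 37.1% of all genes. The calls of Mtpap and Esrra were lost with the offsets, that of Esrra also without 20 mg replicate 3 and that of Mtpap without control replicate 2.

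Fuel oxidation went both ways. The share called was 47.1% for the citric acid cycle, 40% for mitochondrial fatty acid oxidation and 62.5% for peroxisomal genes, beside 37.1% of all. In the citric acid cycle, 4 of 17 genes were higher, the largest being Sdhc (0.55), Sdhb (0.39) and Mdh2 (0.39), and 4 were lower, led by the isocitrate dehydrogenase subunit Idh3b (-0.36). In mitochondrial fatty acid oxidation, 3 of 15 were higher and 3 lower. Etfb, which passes electrons from fatty acid oxidation to the respiratory chain, was higher (1.20 ± 0.19), and Cpt1a, the gate of fatty acid entry into mitochondria, was lower (-0.44 ± 0.11). Of 8 peroxisomal genes, 3 were higher and 2 lower. The thiolase genes Acaa1a (0.84) and Acaa1b (0.81), which are closely related copies, and Hsd17b4 (0.39) were higher and Ehhadh (-0.48) was lower. Mdh2 was not called with the offsets, Sdhb and Ehhadh not without 20 mg replicate 3, and Ehhadh not without control replicate 2.

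Stress, splicing and clock lists were short and differed in how much of them was called. Over all 15 pathway lists, which include those of mitochondria and ribosomes, 137 of 371 genes were higher and 59 lower, or 52.8% called beside 37.1% of all genes. The share called was 20% for immediate early genes, 22.2% for tubular injury genes and 26.7% for the splicing list, and 42.9% for heat shock genes, 44.4% for ATF4 genes, 50% for nuclear-retained RNAs and 54.5% for clock genes. Of 9 targets and members of the ATF4 response, which follows amino acid shortage and mitochondrial stress, 4 were higher and 0 lower, with a median of 0.35. Atf4 had 147, 145, 152 and 195 CPM in the low libraries against 93.5 to 132 CPM (median 113) and a log2 difference of 0.55 ± 0.11, and Trib3 (0.87), Ddit3 (0.52) and Atf5 (0.35) were higher too. With GC content and length taken into account, 2 of the 9 were called as higher, and Trib3 and Atf5 were not, which also lost their calls without 20 mg replicate 3. The inducible heat shock genes Hspa1b (-0.50) and Hspa1a (-0.46) were lower and Hsp90aa1 (0.75) was higher. Among immediate early genes, Ier2 (0.55) was higher and Dusp1 (-0.36) lower out of 10, and among 9 tested tubular injury genes Krt18 (0.40) was higher and osteopontin, Spp1 (-0.28), lower. Of 15 genes of SR splicing factors, their kinases and transcripts that keep introns, Luc7l3 (0.50) was higher and Nktr (-0.38), Ogt (-0.38) and Srrm2 (-0.30) were lower. The offsets turned this into 3 higher and 1 lower, without Ogt and Srrm2. Of 6 long RNAs retained in the nucleus, Miat (0.95) and Neat1 (0.29) were higher and Kcnq1ot1 (-0.57) was lower. Of 11 clock genes, which the study named from these same samples so that they are no independent evidence, Ciart (0.46) was higher and 5 were lower, the largest being Nr1d1 (-0.56), Clock (-0.53) and Npas2 (-0.48). Of the genes named here, Ier2, Krt18, Spp1, Clock and Ciart were not called with the offsets. Hspa1b, Hspa1a, Krt18, Spp1, Srrm2, Miat, Neat1, Npas2 and Ciart were not called without 20 mg replicate 3, nor Dusp1, Neat1, Srrm2, Krt18 and Atf5 without control replicate 2.

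A pair of further gene families was chosen after the values were seen. Of 350 zinc finger genes with names beginning Zfp, DNA-binding proteins that are often repressors, 26 were higher and 142 lower, with a median of -0.30. This is 48.0% called, beside 37.1% of all genes (19.7% higher and 17.4% lower). Zfp51 had 1.38, 2.25, 1.67 and 1.59 CPM in the low libraries against 3.75 to 6.46 CPM (median 5.13). The median GC content of the family was 44.3%, and with GC content and length taken into account 33 were higher and 92 lower (median -0.15). Of 37 proteasome subunit genes, 27 were higher and 2 lower, with a median of 0.37 and 78.4% called beside the same shares of all genes. The summed CPM of the proteasome list was 4763, 5474, 4927 and 5800 in the low libraries and 3719 to 4486 in the high ones, without overlap. Psmb4, of the catalytic core, had 176, 160, 149 and 226 CPM against 89.8 to 121 CPM (median 105), a log2 difference of 0.82 ± 0.10. With GC content and length taken into account, 25 of the proteasome genes were higher and 0 lower.

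Inside the high class the mitochondrial share varied from 12.8% to 23.4%, and no such pattern was detected there. With the log2 share as a covariate in the 8 high libraries, edgeR called 0 of 17445 genes, of which 1052 fell under 0.05 before adjustment and the smallest adjusted p was 0.329. Of 130 named genes called between the classes, 92 had the same direction with a falling share inside the high class and 38 the opposite one. With 8 libraries, this does not show that the share is unrelated to nuclear genes inside that class.

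For some genes, control replicate 2 lay nearer to the high libraries than the other low libraries did. Slc7a13 was higher by 0.28 on the log2 scale in the control group and by 1.23 and 1.17 in the 10 mg and 20 mg groups. The interaction test that follows did not call this gene. Whether the difference between the classes depended on treatment was tested as an interaction, which called 60 of 17026 genes (0.352%), with 1995 at an unadjusted p-value under 0.05. Many of these were pseudogenes or gene models, some of them high in 20 mg replicate 3 alone. Gm12918 had 127 CPM there and 20.4 to 36.6 CPM in the other libraries. Several of the 60 genes mark the medulla and the urothelium and were picked here after their values were seen. Slc14a1, a urea transporter of the medulla, was higher by 1.77 in the low library of the control group, but its differences were -1.53 and -0.42 in the 10 mg and 20 mg groups (adjusted p = 0.0247, edgeR). Psca, of the urothelium, differed by 3.95, -3.64 and 0.14 in the same order. The control group and the 20 mg group had 1 low library each, so such a difference rests on single mice. In the 10 mg group, the high library replicate 4 stood out, with 16.9 CPM of Psca against 2.87 CPM in the high replicate 2. For Slc14a1 these values were 6.17 and 2.79 CPM.

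The libraries were also compared by measures from which mitochondrial counts on genes were left out as far as possible. The number of genes detected included mitochondrial genes, and the percentage of reads not aligned was taken over all reads. Nuclear counts were 15403221 to 21200989 in the low and 13061814 to 20509710 in the high libraries (exact permutation test within treatment groups, two-sided, p = 0.0833), and the number of genes detected, 26023 to 28368 and 26475 to 28425, gave p = 0.76 in the same test. The 100 highest genes took 29.7% to 30.6% of nuclear counts in the low and 27.1% to 29.7% in the high libraries (exact permutation test, p = 0.0208, adjusted p = 0.0624 over 6 measures). Reads lying on more than 1 gene were 5.95% to 6.80% of nuclear and such reads in the low and 6.53% to 7.93% in the high libraries (exact permutation test, p = 0.0104, the smallest that 96 arrangements give, adjusted p = 0.0624). Mitochondrial reads were not split off from them, so this measure may be tied to the share that defined the classes. As a percentage of uniquely aligned reads, they were 4.72% to 5.29% in the low and 4.74% to 5.27% in the high libraries (exact permutation test, p = 0.333). Reads on no gene were 17.7% to 21.7% in the low and 15.6% to 19.6% in the high libraries (exact permutation test, p = 0.0938). At the threshold of 0.1 used for genes, 2 of the 6 measures passed, the share of the 100 highest genes and that of reads on more than 1 gene. Their part in the gene differences was not tested, and the labels give no date of dissection, extraction or library preparation.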

How the data were processed

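The authors trimmed reads with Flexbar, aligned them to GRCm39 with STAR (2.7.5c) and counted them with HTSeq (1.99.2), per the methods and the submitters' processing notes. The deposited files hold raw counts per Ensembl gene for 1 library each, without normalization; summary lines were kept apart. The annotation release, the strand setting and any removal of duplicate reads are not given in the sources used here, so reads of overlapping or antisense genes and of near-identical copies may be shared, and low counts are less exact than counting statistics imply. The library kit was CORALL mRNA-Seq V2, per the labels. Of 57180 gene identifiers, 99.0% matched GENCODE vM39, which gave symbols, positions, and the length and GC content of the Ensembl canonical transcript.

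The 37 mitochondrial genes defined the classes and were removed before library sizes and TMM scaling. Genes were kept by filterByExpr over the treatment groups and tested with edgeR 4.0.16 (R 4.3.3) in a quasi-likelihood model of treatment group and class over all 12 libraries. Genes were called where the p-value, adjusted after Benjamini and Hochberg, was below the 0.1 that the study used. The p-values rest on the spread between mice. CPM are TMM-scaled. Centred log2 CPM used a prior count of 2 and subtracted the mean of all libraries. Single library measures were compared by exact permutation within treatment groups. Nuclear copies of mitochondrial DNA were found with blastn 2.17.0. GC content and length were accounted for by offsets from splines with 5 degrees of freedom in each library. The test was tried on simulated counts.

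Named genes were, per direction, the 10 with the largest log2 difference and the 5 with the smallest p-value among called genes whose classes did not overlap and whose mean was at least 1 CPM, the 4 called list members of largest difference per list and, in lists without a call, the most abundant member. Genes outside this rule are given as contrasts, and some genes within it are not reported here. The division into classes, the gene lists and this rule were chosen with earlier results of these data known. Alternatives were RLE and upper-quartile scaling, scaling with mitochondrial genes, DESeq2 1.42.0, limma-voom 3.58.1, other filters and thresholds, no treatment term, the log2 share, a replicate block, removal of ribosomal and haemoglobin genes, and each library left out. The GC and length offsets, the removal of mitochondrial copies, the restriction to protein-coding genes, the fit of the 8 high libraries and the Zfp and proteasome lists were added after the data were seen.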

Additional observations from a re-analysis of the deposited data

Results flagged for a closer look

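The difference between low and high libraries differed between treatment groups for 60 genes (interaction test, edgeR, adjusted p-value under 0.1), among them Psca and Slc14a1 described above. In 7 of 86 groups of libraries examined for a distant sample, 1 library lay further from the others than Dixon's criterion allows. The criterion is set to flag about 1 in 20 independent groups of normally distributed values. These groups shared libraries and included CPM of genes named for their difference between the classes, so that rate need not apply to them. In the 10 mg group, replicate 3 had the most distant number of genes detected (28368) and replicate 4 the most distant share of nuclear counts on the 100 highest genes (28.1%). Among the high libraries, control replicate 4 had the most distant share of reads not aligned (44.4%). 20 mg replicate 4 was the highest of the high libraries for Mcrip1 (40.4 CPM) and Heatr3 (36.4 CPM), 20 mg replicate 2 for Gm13841 (10.4 CPM) and 10 mg replicate 2 for Aadat (301.3 CPM).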

How the results depend on the processing

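The number of genes called between the classes (6309) ranged from 4030 to 6385 when each library was left out. It was lowest without 20 mg replicate 3 (4030), of which 3807 were among the original calls. Those higher ranged from 2051 to 3248 and those lower from 1979 to 3152, called marker genes from 32 to 57 and called pathway genes from 129 to 192, each lowest without 20 mg replicate 3. Of 130 named genes called, from 3 (control replicate 3) to 28 (20 mg replicate 3) lost their call with 1 library left out, and 17 did without 10 mg replicate 2, and 28 did with GC and length offsets. A minimum absolute log2 difference of 1 left 500 genes, 286 higher and 214 lower, with 3 marker and 10 pathway genes. Among the 8 high libraries alone, 0 genes, 0 higher and 0 lower, 0 marker and 0 pathway genes were called with the share as covariate. RLE and upper-quartile scaling, scaling with mitochondrial genes, DESeq2, limma-voom, the other filters, thresholds and models, and GC and length offsets gave 5013 to 6834 calls. Deviations of same-numbered libraries correlated from -0.329 to 0.315 over 12 pairs, and those of differently numbered libraries from -0.427 to 0.444 over 36 pairs. These correlations also carry the difference between the classes, so they cannot show whether the replicate numbers pair the libraries. As a block, the replicate numbers gave 4934 calls, 4655 of them among the original ones, and 23 named genes lost their call. The block changed the number of interaction genes from 60 to 34.

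Genes that had not passed changed sign in some fits. Psca (0.23) was -0.992 with limma-voom, -0.066 without treatment group, -0.147 with the log2 share, -0.031 with offsets, and from -2.307 (without control replicate 2, called there) to 1.115 with single libraries left out. Star (-0.02) was 0.096 with offsets and ranged from -0.111 to 0.046, and Fabp4 (0.11) from -0.014 to 0.211. With single libraries left out, the difference of the library measures ranged from 2355000 to 4287000 nuclear counts, from -481 to 300.6 genes detected (0 without control replicate 1), from 1.28 to 1.65 percentage points for the 100 highest genes (p from 0.0208 to 0.0833), from -0.858 to -0.562 for reads on more than 1 gene, from 1.12 to 2.43 for reads on no gene and from -4.84 to -0.625 for reads not aligned. The cause of these changes was not tested. Depth limits genes of a few CPM, and 1 or 2 low libraries per treatment group limit every statement on treatment.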
